A study of Mus musculus with 82 samples.

Results

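Top2a, Hmgb2, Mcm2, Mcm7, Rrm2, Cdk1, Cenpa, Birc5 and Kif20a are genes of DNA replication and chromosome segregation, and their transcripts were followed in the livers of BXD mice. The members were chosen by platform gene symbol, with 1 probe each, and they make up 9 of the 21915 features measured. BXD strains are recombinant inbred lines that carry mosaics of the C57BL/6J (B6) and DBA/2J (D2) genomes, and the labels name no engineered allele and no treatment. Liver RNA of 17 BXD strains, on 40 arrays of females and 32 of males, was hybridised with an RNA mix of B6 embryos at day 17.5, the embryo mix, which was the common partner of every BXD array. Liver RNA of B6 males was set against the same mix on 2 arrays. Direct arrays of B6 liver with D2 liver numbered 3 in females and 3 in males, and 1 further array of each sex held RNAs labelled as enriched. The series text gives 10 to 20 weeks of age, unfasted males and 3 mice per line. Since the labels hold both sexes, that text covers the females only in part. The labels do not say whether an RNA was a pool of mice, so p-values measure the spread between these RNAs and arrays.

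Every value is a log2 ratio within an array, so a level of one gene is not set against that of another. The deposited ratios were read as log10 and as channel 2 over channel 1, since the base is not given and both channels carry the same dye label. Under this reading 6 hepatocyte genes had a higher median than 11 embryo genes on 74 of 74 arrays. As deposited, 32 pairs of forward and dye-swapped arrays against the mix correlated between -0.895 and -0.556 across features, while the female and male pairs of B6 against D2 correlated at -0.133 and 0.0187, so the direction of B6 over D2 is likely rather than settled. BXD strains 8, 9, 14 and 27 had forward arrays only, and the other 13 strains had both orientations in both sexes. The sex labels were checked with Cyp2b9, higher in the female in 17 of 17 strains, and with Cyp7b1, lower in the female in 17 of 17. The Y-linked Eif2s3y read higher in the female in 2 strains and Uty in 3, and BXD27 was among them for both genes.

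Adult hepatocytes rest outside the cell cycle and re-enter it after injury or loss of liver mass, whereas most tissues of a late embryo are still growing. Cells that divide switch on replication genes at the entry into S phase and mitotic genes in G2. E2F factors act at the first step. The DREAM complex acts at the cell cycle homology region (CHR) of many mitotic promoters, which it keeps silent in resting cells. Many of these promoters also hold CCAAT boxes, where NF-Y binds.

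Promoters are shown because the members lay low together in liver. RefSeq promoter windows (GRCm38.p6), each of 300 bases from 250 before to 50 after the annotated start, matched 8 of the 9 members, all but Kif20a. Windows were searched on both strands for the CHR (TTTGAA), the CCAAT box (CCAAT) and 4 E2F forms (TTTCCCGC, TTTGGCGC, TTTCGCGC and TTTGCCGC). A CHR match lay in the windows of 5 of the 8 genes (Top2a, Hmgb2, Mcm2, Cdk1 and Cenpa), against 17.9% of all 32851 windows. A CCAAT match lay in 7 of 8, all but Birc5, against 37.4% of all windows. An E2F match lay in 2 of 8, Cdk1 and Mcm7, against 2.26%. Mcm7 had 2 windows, of which only the upstream one held E2F forms. A gene was counted with a match in any of its windows, while the shares of all windows are per window. Cdk1 alone held all 3 kinds, which 0.119% of all windows did. A match describes these letters and is no binding site. The windows with the most matches were those of Top2a (chr11:99024140-99024439, minus strand), with 2 CHR and 6 CCAAT matches, Hmgb2 (chr8:57511593-57511892, plus strand), with 2 and 4, and Cdk1 (chr10:69352863-69353162, minus strand), with 2 and 3 and 1 E2F form. The upstream window of Mcm7 (chr5:138171834-138172133, minus strand) held 2 E2F forms, one of them overlapping a CCAAT box, and no CHR. That of Rrm2 (chr12:24708004-24708303, plus strand), the member that varied most between strains, held 1 CCAAT box. Each is written 5′ to 3′ on the gene's strand, with the matches in capitals.
Top2a: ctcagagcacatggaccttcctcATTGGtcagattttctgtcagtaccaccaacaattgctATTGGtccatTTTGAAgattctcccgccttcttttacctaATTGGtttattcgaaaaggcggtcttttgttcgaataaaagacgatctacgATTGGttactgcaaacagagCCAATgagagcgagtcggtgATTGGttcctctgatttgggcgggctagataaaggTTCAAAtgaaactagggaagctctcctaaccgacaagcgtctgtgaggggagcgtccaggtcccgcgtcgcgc
Hmgb2: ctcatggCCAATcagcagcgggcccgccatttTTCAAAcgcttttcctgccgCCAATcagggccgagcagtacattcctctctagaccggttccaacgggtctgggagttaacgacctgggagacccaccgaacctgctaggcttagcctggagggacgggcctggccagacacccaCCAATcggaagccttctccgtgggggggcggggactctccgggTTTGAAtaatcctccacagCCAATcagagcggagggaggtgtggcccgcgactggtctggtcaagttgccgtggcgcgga
Cdk1: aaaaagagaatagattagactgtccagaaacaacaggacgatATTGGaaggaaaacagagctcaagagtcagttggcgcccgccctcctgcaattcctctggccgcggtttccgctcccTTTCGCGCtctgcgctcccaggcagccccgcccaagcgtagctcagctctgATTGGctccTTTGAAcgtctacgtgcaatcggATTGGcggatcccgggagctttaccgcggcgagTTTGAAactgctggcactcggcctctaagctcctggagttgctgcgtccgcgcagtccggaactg
Mcm7: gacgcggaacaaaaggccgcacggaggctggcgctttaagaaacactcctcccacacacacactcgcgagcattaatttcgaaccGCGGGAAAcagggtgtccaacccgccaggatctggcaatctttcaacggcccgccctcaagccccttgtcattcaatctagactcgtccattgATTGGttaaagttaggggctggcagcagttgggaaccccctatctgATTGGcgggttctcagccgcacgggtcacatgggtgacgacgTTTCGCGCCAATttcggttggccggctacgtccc
Rrm2: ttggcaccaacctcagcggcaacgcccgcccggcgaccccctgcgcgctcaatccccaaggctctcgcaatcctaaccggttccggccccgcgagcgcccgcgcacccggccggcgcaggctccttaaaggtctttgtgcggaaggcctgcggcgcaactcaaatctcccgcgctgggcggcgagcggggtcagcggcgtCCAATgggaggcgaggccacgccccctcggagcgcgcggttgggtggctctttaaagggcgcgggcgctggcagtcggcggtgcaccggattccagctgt

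In liver against embryo, all 9 members were lower in liver in 13 of 13 strains, by 2.25-fold for Kif20a to 11.8-fold for Hmgb2. A feature was called when its Benjamini-Hochberg adjusted p in limma was under 0.05 over all features and its mean log2 ratio over the 13 strains was at least 1 in size. By that rule 9.17% of all features were called lower in liver and 4.69% higher, against 9 of 9 members lower. The members were chosen with earlier results of these data known, so that contrast is not an independent test. The median of the members was -2.16, against 0.07 over all features. In whole tissue, fewer dividing cells and less RNA per cell cannot be told apart. The mix was not liver alone, since Sftpc, a lung surfactant gene, had a ratio of -5.24. It was also a single RNA whose own spread is outside the test.

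Among the chromatin genes, Hmgb2 encodes a DNA-bending protein that is abundant in dividing cells. Its strain means ran from -4.01 in BXD11 over a median of -3.56 to -3.25 in BXD28. The mean was -3.56 ± 0.21 (SD, n = 13 strains; limma adjusted p = 5.33e-18). No strain mean of another member was as low as that mean. Top2a encodes the topoisomerase that untangles chromosomes before they separate. It ran from -2.72 in BXD28 over a median of -2.08 to -1.93 in BXD2, a 4.47-fold difference on average (-2.16 ± 0.25, SD, n = 13; limma adjusted p = 2.33e-14). BXD28 thus held both the lowest strain mean of Top2a and the highest of Hmgb2.

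The replication members are Mcm2 and Mcm7, subunits of the helicase that opens replication origins, and Rrm2, the small subunit of ribonucleotide reductase, which makes deoxyribonucleotides in S phase. Mcm2 ran from -2.35 in BXD32 over a median of -2.16 to -1.82 in BXD31 (mean -2.13 ± 0.14, SD, n = 13; limma adjusted p = 4.25e-17). Mcm7 was closer to the embryo level, between -1.87 in BXD18 and -1.36 in BXD15 with a median of -1.59 (mean -1.60 ± 0.16, SD, n = 13; limma adjusted p = 6.13e-15). The ranges of these helicase subunits met only at their edges, since the highest strain mean of Mcm2 lay just above the lowest of Mcm7. Rrm2 was spread far more widely, from -3.35 in BXD2 over a median of -2.67 to -2.06 in BXD31. Its mean was -2.73 ± 0.46 (SD, n = 13), a 6.62-fold difference (limma adjusted p = 2.73e-12).

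Of the mitotic members, Cdk1, the kinase that drives entry into mitosis, ran from -2.09 in BXD11 over a median of -1.67 to -1.55 in BXD5 (mean -1.75 ± 0.17, SD, n = 13; limma adjusted p = 3.62e-15). Cenpa, the histone variant that marks centromeres, ran from -2.99 in BXD12 over -2.60 to -2.21 in BXD28 (mean -2.63 ± 0.24, SD, n = 13; limma adjusted p = 1.10e-15). Birc5 encodes survivin, a subunit of the chromosomal passenger complex that is also known as an inhibitor of cell death. It lay between -3.29 in BXD28 and -2.81 in BXD5 with a median of -2.99, an 8.24-fold difference on average (-3.04 ± 0.14, SD, n = 13; limma adjusted p = 5.15e-19). Kif20a, a kinesin of the spindle midzone that is needed for cytokinesis, had the smallest difference and the narrowest range, from -1.27 in BXD21 over -1.17 to -1.04 in BXD19 (mean -1.17 ± 0.06, SD, n = 13; limma adjusted p = 1.16e-16). All 13 of its strain means thus lay just past the size threshold.

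**Figure D1:**
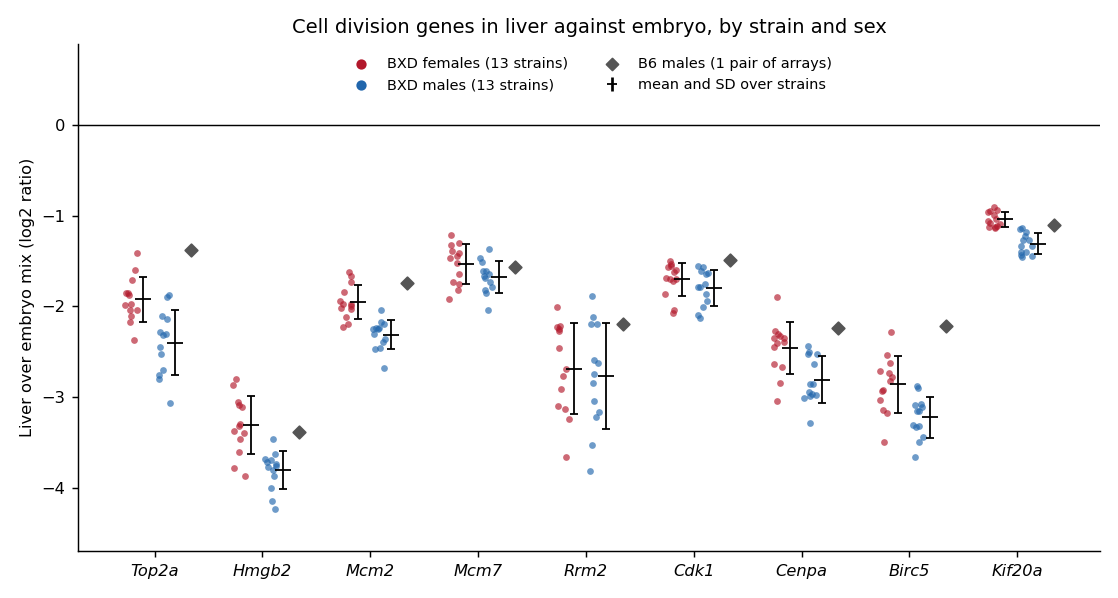
Log2 ratio of liver over the embryo mix for each member, with 1 point per BXD strain for females and for males (13 strains with both array orientations), bars for mean and SD, and diamonds for the mean of 2 B6 male arrays. Every strain value lies below 0, Hmgb2 lowest and Kif20a nearest to 0 by mean, and Rrm2 is spread most widely.

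The members were set in a wider list of cell division genes chosen by role, of which 63 were measured. Outside the members, 28 of 54 genes were lower in liver, none was higher and 26 were not called, with a median of -1.07. The largest differences among them were those of Cdkn1c (-3.59), an imprinted inhibitor of cyclin-dependent kinases that restrains division, Ttk (-3.28), the spindle checkpoint kinase also called Mps1, and Lmnb1 (-3.13), the nuclear lamin B1. By role and with the members included, 11 of 14 chromatin genes were lower, as were 5 of 7 genes of spindle and cytokinesis and 6 of 10 of origin licensing. The same held for 4 of 7 cyclins, kinases and activators, 6 of 11 centromere and checkpoint genes, 3 of 9 genes of DNA synthesis and nucleotide supply, and 2 of 5 inhibitors with the Rb and E2F group. The kinase Plk1 (0.03) and the helicase factor Cdc45 (0.02) lay near 0 in liver against embryo. Array brightness was not used, so such a ratio cannot tell equal expression from a lack of signal in both channels.

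**Figure D2:**
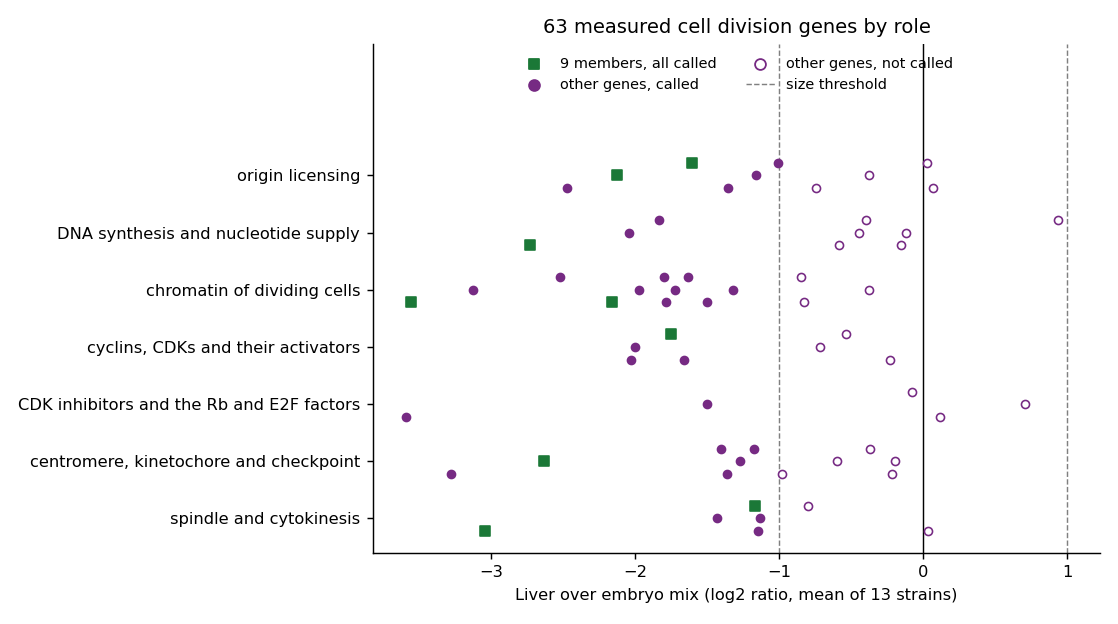
Mean log2 ratio of liver over the embryo mix (13 strains) for 63 cell division genes, grouped by role. Squares are the 9 members, filled circles other called genes, open circles genes not called, and dashed lines the size threshold of 1 on either side of 0; 37 genes were lower in liver and none was higher.

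Markers of tissues and other cells differed in direction, and only some were lower in liver as the members were. All 6 hepatocyte genes were higher in liver, with a median of 3.57, and 6 of 11 embryo genes were lower, with a median of -2.91. Of 6 red blood cell genes, 3 were lower, among them Ermap (-1.94) and Hba-a1 (-1.77). Of 4 stellate cell and fibroblast genes, Lum (-1.66) and Acta2 (-1.06) were lower. None of 4 macrophage genes and none of 6 endothelial genes was called, while 1 of 4 lymphocyte genes, Cd4, was higher at 1.10. The embryo mix therefore also held more of some blood and connective tissue transcripts, and their part in the members' ratios was not tested.

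Between the sexes, 6 of 9 members had higher liver over embryo ratios in females, but none of the 9 was called higher once the arrays had been scaled to a common spread. In limma with strain as a block (17 strains, adjusted p under 0.05), 16.5% of all features were called higher in females and 17.2% lower. Of the 2010 features called lower in liver, 628 (31.2%) were called higher in females and 78 lower, and their median difference was 0.16, against 0.30 for the members and 0.02 over all features. The median absolute deviation of the ratios over all features had a median of 0.577 over the 17 female values and 0.618 over the 17 male values, and it was lower in the female in 11 of 17 strains, with a mean female minus male difference of -0.0806 ± 0.107 (SD, n = 17; exact sign-flip permutation test, two-sided, p = 0.00768). The SD of the ratios over all features was lower in the female in 10 of 17 strains (same exact test, p = 0.0648). Over the 13 strains with both orientations each measure was lower in the female in 7 (same exact test, p = 0.092 for the median absolute deviation and 0.29 for the SD). Scaling every array to a common spread left 0 members called higher and 1, Rrm2, called lower in females, while 14% of all features were called higher and 16.8% lower, and turned the median difference of the 2010 features to -0.06. Under quantile normalization 2 members, Top2a and Mcm2, were still called higher, against 14.5% of all features higher and 16% lower. The 1 and 2 members called are of the order of these shares.

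Hmgb2 ran from -3.88 over a median of -3.33 to -2.81 in females, against -4.24 over -3.76 to -3.14 in males. The ranges overlapped, and females were higher in 15 of 17 strains, by 0.42 ± 0.39 (SD, n = 17; limma adjusted p = 0.00155), although the scaled difference was -0.12. Top2a ran from -3.22 over -1.97 to -1.32 in females, against -4.03 over -2.30 to -1.88 in males. It was higher in 14 of 17 females, by 0.42 ± 0.54 (SD, n = 17; limma adjusted p = 0.0130), with a scaled difference of 0.13. On forward arrays alone the difference was 0.37 and was not called (limma adjusted p = 0.0660). The male of BXD14, a strain with forward arrays only, held the lowest Top2a value of all.

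Mcm2 was higher in 15 of 17 females, by 0.30 ± 0.27 (SD, n = 17; limma adjusted p = 0.00149), and its scaled difference was 0.05. Its values ran from -2.23 over -1.97 to -1.15 in females, against -2.68 over -2.24 to -1.26 in males. Cenpa was higher in 15 of 17 females, by 0.30 ± 0.26 (SD, n = 17; limma adjusted p = 0.00124), with values from -3.04 over -2.34 to -1.52 in females, against -3.28 over -2.63 to -1.75 in males. After scaling its difference was -0.0025, which is next to none. Kif20a was higher in 16 of 17 females, by 0.21 ± 0.22 (SD, n = 17; limma adjusted p = 0.00658), and by 0.06 after scaling. Birc5 was higher in 12 of 17 females, by 0.35 ± 0.56 (SD, n = 17; limma adjusted p = 0.0394), and its scaled difference was -0.03. Its call was the least stable, since it was lost when any one of 9 of the 17 strains was left out, on forward arrays alone (limma adjusted p = 0.0564) and on swapped arrays alone (limma adjusted p = 0.0997).

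The other members were not called. Mcm7 differed by 0.17 ± 0.34 (SD, n = 17; limma adjusted p = 0.107; 95% interval 0.0047 to 0.34), Rrm2 by 0.06 ± 0.62 (adjusted p = 0.784) and Cdk1 by 0.05 ± 0.20 (adjusted p = 0.514), and each lay below 0 after scaling, at -0.11 for Mcm7, -0.35 for Rrm2 and -0.23 for Cdk1. Of these scaled values only that of Rrm2 was called (limma adjusted p = 0.0327). The Rrm2 difference had no common direction, since females were higher in 8 strains and lower in 9.

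BXD27 stood apart in this comparison. It held the lowest female minus male value for 7 of the 9 members, -1.21 for Top2a and -1.04 for Rrm2 among them, and the highest for Mcm7, at 1.08. It is also the strain where Eif2s3y (0.10) and Uty (0.38) were both above 0 in female minus male, while the X-linked Eif2s3x (0.78) and Ddx3x (1.72) were above 0 there, as in all 17 strains, and Cyp2b9 (1.45) and Cyp7b1 (-2.78) kept their usual direction. Without BXD27 the same 6 members were called, with limma adjusted p between 0.000216 for Top2a and 0.0162 for Birc5, and the difference of Top2a was 0.52.

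No label gives a run, so arrays were grouped into runs by the order of their deposit. A new run began at a forward array against the mix that followed a swapped or direct array. Apart from the strains with forward arrays only, females and males in a run came from different strains. Strain and sex cannot be told apart there. Of the runs, 5 held both sexes. Within these runs the female minus male difference was above 0 in 5 of 5 for Cenpa (0.12 to 0.54), in 4 of 5 for Mcm2, Mcm7 and Kif20a, in 3 of 5 for Top2a, Birc5, Hmgb2 and Rrm2, and in 1 of 5 for Cdk1. One of the 5 runs held BXD27 alone, and in the other 4 the difference was above 0 in 4 for Cenpa (0.16 to 0.54), Mcm2 and Kif20a, in 3 for Top2a, Mcm7, Birc5, Rrm2 and Hmgb2, and in 1 for Cdk1. A further fit had 1 value per replicate number and the run as a term, but no strain block. Mcm2 (limma adjusted p = 0.0180), Cenpa (0.0207) and Mcm7 (0.00128) were called in it. Top2a (0.610), Birc5 (0.0703), Hmgb2 (0.0731) and Kif20a (0.140) were not. In that fit 15.8% of all features were called higher in females and 16.8% lower, against 3 of 9 members higher. With neither run term nor strain block, Top2a (limma adjusted p = 0.0868) and Cenpa (0.119) were not called, while Mcm2, Birc5, Hmgb2 and Kif20a were.

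Other genes of the cell division list leaned the same way between the sexes: 21 of 54 were called higher in females and 3 lower, with a median of 0.15. Of all features, 16.5% were called higher and 17.2% lower. Of the features called lower in liver, which leaned the same way, 31.2% were called higher and 3.88% lower. Among the higher list genes were Gmnn (0.56), which blocks a second round of origin licensing, and the primase subunit Prim1 (0.51). The 3 lower in females were Smc2 (-0.33), a condensin subunit, Cdc45 (-0.23) and the kinetochore gene Cenph (-0.19). After scaling, 9 of the 54 were called higher and 8 lower, with a median of 0.01, which is near the shares of all features under that scaling (14% and 16.8%).

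Some markers of other cell types also differed between the sexes. Of 25 such genes, 7 were called higher in females and 3 lower, with a median of 0.05. Of all features, 16.5% were called higher and 17.2% lower. The higher ones were the complement genes C1qa (0.35) and C1qb (0.37) of macrophages, the leukocyte gene Ptprc (0.22), the T cell gene Cd3e (0.14), the endothelial receptor Tek (0.33), and Lrat (0.26) and Lum (0.27) of stellate cells and fibroblasts. The lower ones were Rhag (-0.66) of red blood cells and the endothelial receptors Tie1 (-0.26) and Flt4 (-0.12). After scaling, 6 were called higher and 5 lower, against 14% and 16.8% of all features. Their part in the members' differences was not tested.

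**Figure D3:**
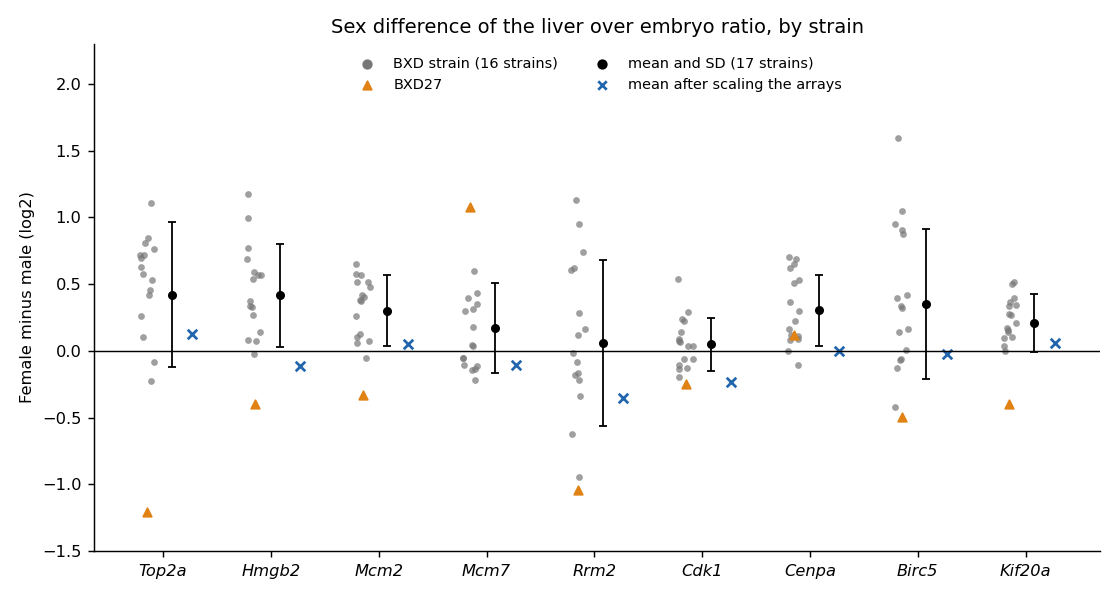
Female minus male log2 difference of the liver over embryo ratio for each member, with 1 point per BXD strain, triangles for BXD27, black points and bars for mean and SD over 17 strains, and crosses for the mean after scaling the arrays. The means run from 0.05 to 0.42 as deposited; after scaling they run from -0.35 to 0.13 and 6 of 9 lie below 0.

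Across the 13 strains with both orientations, no member was called in the moderated F test of strain with sex as a term, against 1.2% of all features. The female and male values served as the samples of each strain there, so a strain difference present in a single sex adds to the residual spread. Cenpa (limma adjusted p = 0.269), Rrm2 (adjusted p = 0.275) and Cdk1 (adjusted p = 0.301) were under an unadjusted 0.05, as were 3016 features in all. The members' median SD over strain means was 0.17, against 0.15 over all features and 0.19 over those called lower in liver. The SD was 0.46 for Rrm2, 0.25 for Top2a, 0.24 for Cenpa, 0.21 for Hmgb2, 0.17 for Cdk1, 0.16 for Mcm7, 0.14 each for Birc5 and Mcm2 and 0.06 for Kif20a. With the 4 forward-only strains added, Cenpa (limma adjusted p = 0.000436), Mcm2 (0.0026), Cdk1 (0.0239) and Top2a (0.0392) were called, but so were 5589 features, and orientation and strain cannot be told apart in those 4.

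Forward and swapped arrays of 1 RNA did not read alike for some members. Over 31 pairs of 1 RNA, forward minus swapped averaged -0.55 ± 0.81 for Top2a (SD), 0.37 ± 0.46 for Mcm2, 0.31 ± 0.40 for Cdk1 and 0.26 ± 0.20 for Mcm7. It was negative in 22 of the 31 pairs for Top2a, in 7 each for Mcm2 and Cdk1 and in 3 for Mcm7. The sign was most mixed for Kif20a (0.05 ± 0.20, negative in 15 pairs), Birc5 (0.13 ± 0.63, in 14 pairs) and Rrm2 (0.11 ± 0.56, in 13 pairs). These differences were not tested. Where a strain and sex had 2 replicate numbers (5 groups), these differed on average by 0.14 for Mcm7 to 0.55 for Top2a, in size. That was more than the SD between strain means for every member but Mcm7 and Rrm2. For Top2a the SD was 0.25, while Rrm2 (0.27) lay below its SD (0.46) and Mcm7 (0.14) just below its own (0.16). The measures are unlike, since the differences are of values within a sex and the SD is of means over both sexes.

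Rrm2 had the widest spread of the members, a 2.46-fold range of strain means. The largest gap in its ordered strain means, 0.48, lay between -3.16 and -2.68, with 5 strains (BXD2, 21, 32, 12 and 11) below it and 8 above. BXD12 had -3.25 in the female and -3.16 in the male, and BXD11 had -3.10 and -3.22, so in these lines both sexes lay close together. At the upper end, BXD31 had -2.23 in the female and -1.89 in the male, BXD16 -2.28 and -2.11, and BXD5 -2.21 and -2.20. In other lines the sexes were far apart: BXD21 had -2.69 in the female and -3.82 in the male, and BXD28 had -3.14 and -2.19. The residual SD of Rrm2 in the strain test was 0.41, nearly as large as its SD between strain means.

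**Figure D4:**
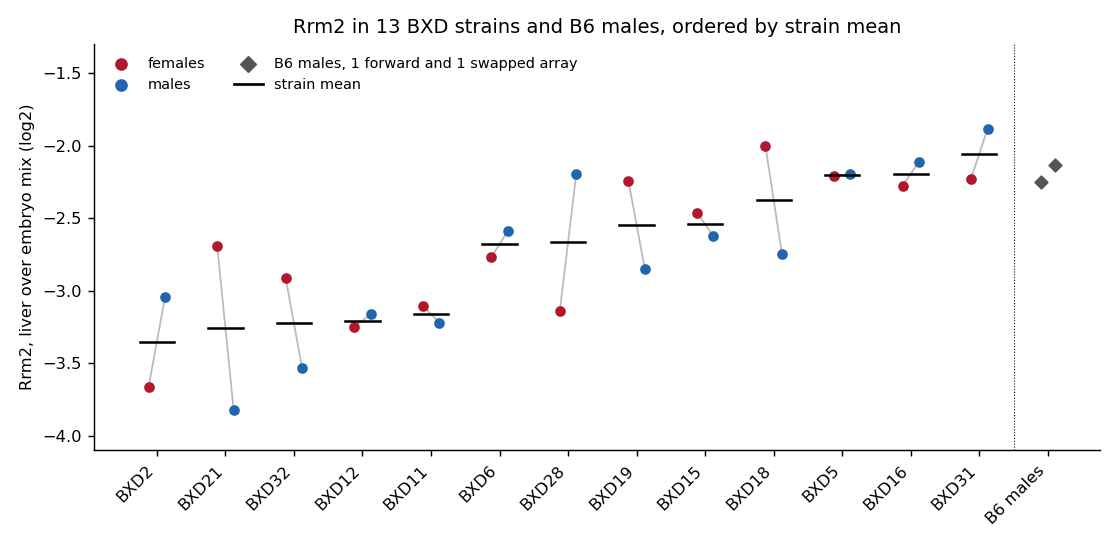
Rrm2 log2 ratio of liver over the embryo mix in each of 13 BXD strains, with females, males and the strain mean, in order of the mean, and 2 arrays of B6 males at the right. The strain means run from -3.35 in BXD2 to -2.06 in BXD31 with a gap of 0.48 after the 5 lowest, and the sexes lie apart by up to 1.13, in BXD21.

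The members did not follow each other closely from strain to strain. Of 36 pairs of members, 27 had a positive Pearson correlation over the 13 strain means, with a median of 0.19 and a range from -0.50 (Mcm7 with Hmgb2) to 0.73 (Top2a with Birc5). None passed the adjusted threshold by Pearson's r (100000 permutations, two-sided, smallest adjusted p = 0.139, 5 pairs with an unadjusted p under 0.05). By Spearman's rho 1 pair did, Top2a with Birc5 (rho = 0.84, permutation p = 0.00067, adjusted p = 0.0241). For that pair r was 0.73 (permutation p = 0.00432, adjusted p = 0.139), 0.58 without the 2 strains farthest from the median, and 0.79 with the sex and run means removed. In females alone its r was 0.74, but in males alone it was only 0.28. Mcm2 and Mcm7, which work in 1 complex, had r = 0.43 (permutation p = 0.141, adjusted p = 0.523). After scaling the arrays, 7 pairs passed.

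Of all named features, Tpm3 (r = 0.85), Rilpl1 (0.81), Lrrc23 (0.81), Comp (0.80) and Msln (0.78) were most like the mean of the standardised members over 26 strain and sex values, after removal of the mean of each sex. None of these is a cell division gene of the list, and all were lower in liver, between -1.20 for Lrrc23 and -3.04 for Comp. These points share arrays, and the SD of the ratios on an array had r = -0.67 with the same mean, while 894 of 21915 features had r over 0.5.

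On the direct arrays of B6 against D2 liver, Rrm2 was the member that differed most. B6 over D2 was 0.49, 0.85 and 0.94 on the female arrays and 0.83, 1.07 and 1.05 on the male arrays. All 6 arrays thus gave higher Rrm2 in B6. Averaged to 4 values, 1 per sex and replicate number, the ratio was 0.90 ± 0.16 (SD, n = 4), or 1.87-fold. Its limma adjusted p was 0.0501, just over the threshold, and 0.178% of all features were called. A fit of the 6 arrays with a dye term gave 0.82 (limma adjusted p = 0.00518, with 1.25% of all features called). Of these 6 arrays 4 are forward and swapped readings of only 2 RNAs, so that fit counts more values than RNAs and its p is too small. The arrays labelled as enriched gave 0.98 in females and 1.13 in males.

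No member was called in that comparison, in which 2894 features had an unadjusted p under 0.05. The nearest to Rrm2 in size was Mcm2, at -0.33 ± 0.33 (SD, n = 4; limma adjusted p = 0.380). Its 4 values were -0.06 and -0.43 in females and -0.09 and -0.76 in males, all lower in B6, although both forward arrays taken alone gave small positive ratios (0.11 and 0.05). It was at -0.16 with the dye term and between -0.42 and -0.19 with 1 value left out. Birc5 was at -0.24 ± 0.27, Cenpa at -0.10 ± 0.43, Hmgb2 at 0.08 ± 0.10, Kif20a at -0.08 ± 0.13 and Top2a at 0.07 ± 0.29 (SD, n = 4 each; limma adjusted p from 0.399 to 0.795). Birc5 was at -0.11 with the dye term and between -0.33 and -0.13 with 1 value left out. Cdk1 and Mcm7 were nearest to 0, with 95% intervals of -0.19 to 0.16 and -0.18 to 0.21 for B6 over D2. The difference between females and males in B6 over D2 was called for 0 features in limma, with 1673 at an unadjusted p under 0.05, and its smallest adjusted p among the members was 0.661, for Top2a.

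**Figure D5:**
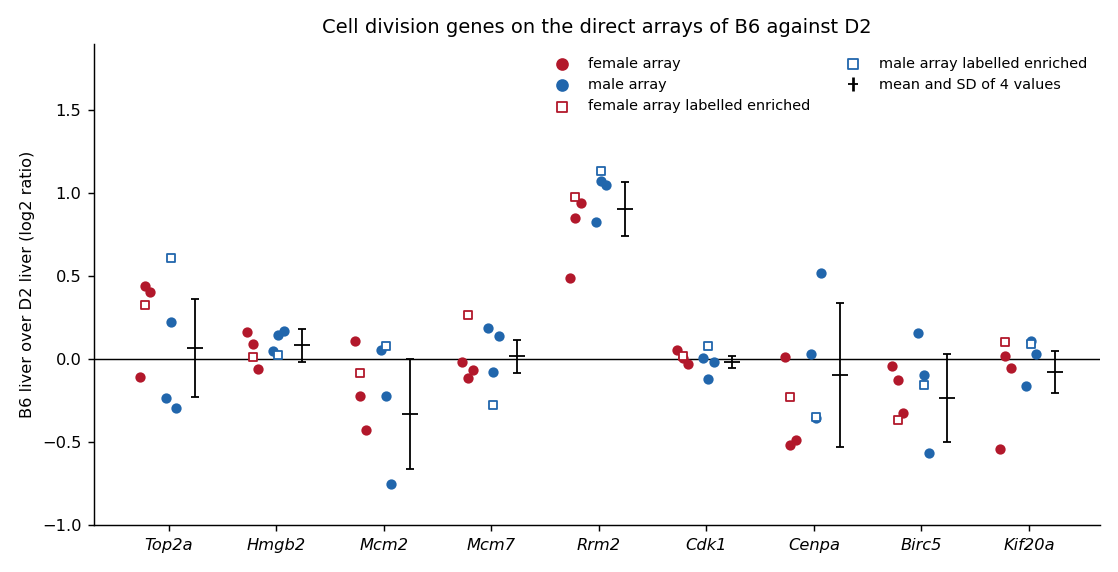
Log2 ratio of B6 liver over D2 liver for each member on 3 female and 3 male arrays (filled circles) and 1 array of each sex labelled as enriched (open squares), with the mean and SD of the 4 averaged values. Rrm2 lies above 0 on all 8 arrays, between 0.49 and 1.13, and every other member has arrays on both sides of 0.

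Against the embryo mix, the B6 males had less negative ratios than each of the 13 BXD male strain values for 7 of 9 members, but the spread of the B6 arrays was also lower. The share of all features outside the BXD male values was not counted, so the member counts have no background to be read against. Birc5 was at -2.23 and -2.19 on the 2 B6 arrays, while the BXD males ran from -3.66 over -3.16 to -2.87. Top2a was at -1.64 and -1.11 in B6 males, while the BXD males ran from -3.07 over -2.32 to -1.88. Rrm2 was at -2.25 and -2.13 in B6 males, with 2 BXD male strains above that mean and 11 below. The median absolute deviation of the B6 arrays was 0.453 and 0.475, below the lowest male strain value of 0.547. After scaling, 1 of 9 members, Top2a, still had a less negative ratio in B6 males than in all 13 BXD male strains, and Mcm7 was lower in B6 males than in all 13.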

How the data were processed

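Each of the 82 two-colour arrays held 21936 probes. The authors deposited 1 log ratio per probe and array, read here as log10 because 94 values equal 2 or -2 exactly, the ends of their range, and then turned to log2 with liver (or B6) on top. The scanner, its software and any normalization: not given in the sources used here. Array brightness (intensity) was not used here. No value was missing. Probes were named by the platform annotation (3290 with 1 symbol, 4 with several) and 170 by RefSeq accession, and 18476 had no name. Probes of 1 gene were averaged for 18 genes, none of them a member, which left 21915 features, 3439 of them named.

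Arrays were averaged within strain, sex and orientation, then over orientations. Tests used limma 3.58.1 in R 4.3.3 with default eBayes settings and Benjamini-Hochberg adjustment over all features at 0.05, after checks on simulated data. The liver test also required an absolute log2 ratio of 1. One array of a BXD11 female carries a dye swap in its title, while its channels give the forward order, which was followed. The members and lists were chosen with earlier results of these data known. Members, the 3 largest other list genes per direction and the 5 most alike features are named. Alternatives covered centring, scaling, quantile normalization, variance model, bounds, replicates, orientation, strain sets, a dye term, a run term, a replicate block, the enriched arrays and leaving out each strain or value. Scaling of the member correlations, of the list and marker counts and of the B6 male arrays was added after seeing the data. Replicate numbers pair no samples by the labels. The number of arrays limits the precision. Values of some listed genes are not reported here by name, though the counts and medians include them.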

Additional observations from a re-analysis of the deposited data

Results flagged for a closer look

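The arrays of enriched RNA lie outside the tests of the report, and the labels do not say what was enriched. On them Rrm2 again read higher in B6 than in D2, at 0.98 (log2) on the female array and 1.13 on the male array. Each is above the lowest of the 4 direct values (0.67), and no other member had 1 direction across those 4 values and both enriched arrays. Each has 1 array, in the swapped orientation, so no spread is known. No direct value of any member stood apart from the other 3 by Dixon's test at its 95% critical value.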

How the results depend on the processing

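In liver against embryo, all 9 members were called under every alternative except reading the deposited values as log2, which left 205 features and 1 member, Hmgb2, called. Leaving out 1 strain gave 2988 to 3094 features and 9 members.

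For females against males, scaling the arrays left 1 member called (Rrm2, lower in females at -0.35) and turned Cdk1 to -0.23, Mcm7 to -0.11, Birc5 to -0.025, Hmgb2 to -0.12 and Cenpa to -0.0025. Quantile normalization left 2 members called and turned Cdk1 to -0.0703 and Rrm2 to -0.0801. The run term, in a fit without the strain block, gave 3 members, and 2 of the 3 were among the 6. That fit called 15.8% of all features higher in females and 16.8% lower, and it turned Cdk1 to -0.11. The 4 forward-only strains alone gave 0 features in limma, with 3276 at an unadjusted p under 0.05, and 0 members, with Cdk1 at -0.11 and Rrm2 at -0.00598. Forward arrays lost the calls of Top2a and Birc5 and swapped arrays that of Birc5. Rrm2 turned to -0.0467 on forward arrays, and Cdk1 to -0.0700 on swapped arrays. Leaving out 1 strain, Rrm2 ran from -0.00797 (without BXD21) to 0.128 (without BXD27). Leaving out 1 strain gave 6603 to 8142 features and 5 to 6 members. The replicate block gave 7807 features and 6 members, with Birc5 at an adjusted p of 0.0440, and changed no member's call. Same-numbered values of B6 against D2 deviated together across features (r = 0.325), but those numbered 1 average both orientations while the others hold swapped arrays only, and the labels give no shared animal, so the numbers were not taken to pair samples.

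For strain differences, 262 features were called, against 164 on forward arrays, 101 on swapped arrays and 5589 over 17 strains, where 4 members were called. Leaving out 1 strain gave 139 (without BXD15) to 278 features and 0 members. For B6 against D2, 39 features were called, against 77 after scaling, 274 with the dye term, 683 on swapped arrays, 510 with the enriched arrays, 9 with the replicate block and 0 with trend and robust settings (746 at an unadjusted p under 0.05 in limma). The dye term, swapped arrays and enriched arrays each gave 1 member, Rrm2, with adjusted p from 0.00216 to 0.0145, although the dye term fit enters 2 of the RNAs with 2 arrays each, and elsewhere its adjusted p ran up to 0.442. Leaving out 1 value gave 0 to 29 features (0 without the first male value, with 3016 unadjusted) and 0 members. Ratios near 0 changed sign: Mcm7 to -0.0286 and Kif20a to 0.0263 on swapped arrays, and Cdk1 to 0.00514 with the enriched arrays. Leaving out 1 value, Top2a ran from -0.0441 to 0.189, Mcm7 from -0.0243 to 0.0430 and Cenpa from -0.30 to 0.0348. After scaling, 7 pairs of members passed, against 0. The cause of these changes was not tested, beyond fewer arrays or other arrays in the fits on forward, swapped or enriched arrays and on other strain sets.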
